A study of Mus musculus with 17 samples.

Results

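The 10 genes described here encode the main cytosolic and mitochondrial heat shock chaperones and the transcription factor that induces them: Hsp90aa1, Hsp90ab1, Hspa8, Hspa1a, Hspa1b, Hspa4, Hspa9, Hspd1, Hspe1 and Hsf1. They were chosen by symbol, and all 10 had a row among the 48440 genes of the deposited table. All 10 also reached a TPM (an abundance per length of transcript, scaled to the same total in each library) of at least 1 in at least 8 libraries, as did 14144 genes in all, and these were the genes tested. The study sequenced poly-A selected RNA of the frontal cortex from 17 adult offspring, male C57BL/6J mice aged 189 days. Their dams were injected intraperitoneally at G12.5, 9 of the offspring having dams given Poly(I:C) at 20 mg/kg and 8 having dams given saline. As an artificial double-stranded RNA, Poly(I:C) stands in for a viral infection and is used to provoke the immune system of the dam. The labels speak of 11 dams but tie no animal to a litter, so every p-value treats the offspring as independent animals.

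Heat shock proteins bind unfolded or partly folded proteins and release them in cycles driven by ATP. HSP70 proteins take short exposed stretches of newly made or damaged proteins, HSP90 proteins act later on kinases, receptors and other clients, and the chaperonin HSP60 closes over its client inside the mitochondrion with HSP10 as its lid. In unstressed cells the factor HSF1 is held inactive by chaperones, and on heat or proteotoxic stress it binds heat shock elements, repeats of the unit GAA and its reverse complement TTC, and raises transcription of the inducible members. Neurons are known to hold high constitutive levels of HSC70 and HSP90 and to induce HSP70 weakly.

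None of the 10 chaperone genes passed the test between the prenatal groups. By limma with Benjamini-Hochberg adjustment over all 14144 genes, 0 of 10 members had an adjusted p under 0.05, where 0% of all genes did, and their adjusted p ran from 0.486 to 0.994. A Mann-Whitney test per gene also called 0 of 10. The member with the smallest p was Hspd1, which encodes HSP60: its mean was 87.2 TPM in the Poly(I:C) group and 100.3 TPM in the saline group. It was the 1 member of 10 under an unadjusted p of 0.05, a limit that 8.75% of all tested genes also met, 7.85% with lower values in the Poly(I:C) group. The ratio of Hspd1 to its partner Hspe1 within each library was lower in the Poly(I:C) group by an exact permutation test. That call was lost in most of the runs with a single library left out. It was also lost with the replicate number as a block, though these numbers do not pair the animals. Values of the groups overlapped for all 10 genes, a count for which no share over all tested genes was computed. Of the members, 9 of 10 had the lower mean log2 value in Poly(I:C) libraries, like 71% of all tested genes. The median log2 difference of the members was -0.054, against -0.035 over all tested genes. TPM is a share of a fixed total, so the same genes were also compared after median-of-ratios scaling, which sets the typical gene equal between libraries. The median over all genes was then -0.0014, 7 of 10 members and 50.9% of all genes were lower, and the median of the members was -0.019. On that scale 0 of 10 members passed in limma, where 0.0141% of all genes did, and Hspd1 alone was under an unadjusted p of 0.05, as were 7.34% of all genes. In bulk tissue, fewer cells of a type and less RNA per cell cannot be told apart.

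**Figure D1:**
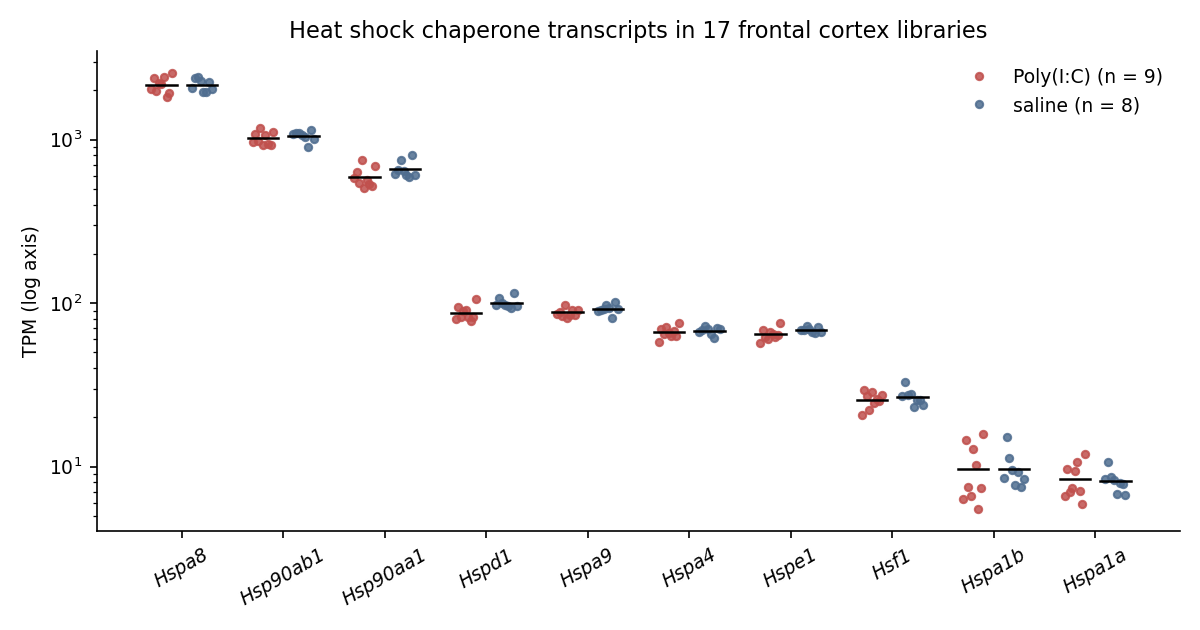
TPM (log axis) of each chaperone gene in the 9 Poly(I:C) libraries (red) and the 8 saline libraries (blue), with 1 point per library and a bar at each group mean. Levels run from about 2169 TPM for Hspa8 to 8.29 TPM for Hspa1a, and the points of both groups overlap for every gene.

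The chaperone transcripts spanned a wide range of levels, led by the constitutive Hspa8 and the cytosolic HSP90 genes. Averaged over 17 libraries, Hspa8 stood at 2169 ± 215 TPM (SD, n = 17) and was the 27th gene by mean TPM of all those tested. Hsp90ab1 followed at 1034 ± 82.3 TPM and Hsp90aa1 at 624 ± 85.4 TPM, and the ranges of these 3 did not overlap. A middle tier held Hspd1 at 93.4 ± 10.4 TPM, Hspa9 at 89.9 ± 5.82 TPM, Hspa4 at 66.99 ± 4.59 TPM and Hspe1 at 66.4 ± 4.67 TPM. Within it Hspd1 and Hspa9 overlapped, Hspd1 being the higher in 10 of 17 libraries, and so did Hspa4 and Hspe1, with Hspa4 higher in 9 of 17. The regulator Hsf1 was lower at 26.1 ± 2.85 TPM, and the inducible HSP70 genes came last, Hspa1b at 9.65 ± 3.20 TPM and Hspa1a at 8.29 ± 1.69 TPM, with overlapping ranges. Summed, the 10 genes took 3633 to 4765 TPM of a library.

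Both cytosolic HSP90 genes were measured, the inducible alpha form and the constitutive beta form. Hsp90aa1 (ENSMUSG00000021270.13, chr12:110690605-110702728, minus strand of GRCm38) encodes HSP90 alpha. In the Poly(I:C) group its TPM was 504.45 at the lowest, 569 at the median and 750.2 at the highest, and in the saline group 592, 629 and 808. Of the 9 Poly(I:C) libraries 6 lay below the lowest saline library, while Poly(I:C) replicates 4, 9 and 2 lay inside the saline range and saline replicate 7 was the highest of all. The means were 592 ± 82.3 TPM (SD, n = 9) and 659 ± 78.5 TPM (SD, n = 8), and the log2 difference, Poly(I:C) minus saline, was -0.16 ± 0.078 (SE; limma adjusted p = 0.573). Hsp90ab1 (ENSMUSG00000023944.14, chr17:45567775-45573271, minus strand) encodes HSP90 beta. It ran from 929.8 through a median of 976 to 1181 TPM in the Poly(I:C) group and from 896 through 1069 to 1147 TPM in the saline group. The Poly(I:C) range reached above the saline range at its top and stayed above the lowest saline value, so that neither group stood apart. Its log2 difference was -0.044 ± 0.052 (SE; limma adjusted p = 0.812), and -0.0069 after median-of-ratios scaling.

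Hspa8 (ENSMUSG00000015656.16, chr9:40800984-40810087, plus strand) encodes HSC70, the constitutive HSP70 that also uncoats clathrin vesicles at the synapse. Its TPM was 1813, 2197 and 2570.4 at the lowest, median and highest Poly(I:C) library and 1958, 2153 and 2405 in the saline group. The Poly(I:C) values were the wider, with 2 libraries below and 2 above the whole saline range, and the group means were nearly equal at 2171 ± 253 (SD, n = 9) and 2167 ± 180 TPM (SD, n = 8). The log2 difference was -0.0016 ± 0.065 as deposited (SE; limma adjusted p = 0.994) and 0.036 on the scaled values, so its direction rests on the scaling. Hspa8 has near-identical processed copies, Gm8355 at 98.7% identity over 1941 bases and Gm15459 at 99.7%, listed at mean levels of 20.5 and 2.42 TPM, and reads shared with them were divided by estimation.

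Hspa1a and Hspa1b, the inducible HSP70 genes, lie side by side on chromosome 17 and are almost the same sequence. Hspa1a (ENSMUSG00000091971.3) occupies chr17:34969190-34972156 and Hspa1b (ENSMUSG00000090877.3) chr17:34956436-34959238, both on the minus strand, and their transcripts share 2201 bases at 99.2% identity. The 250 bases before each transcription start, from RefSeq on GRCm38.p6 and printed 5′ to 3′ on the minus strand, are shown because the pair varied most between animals and differed in only 3 of these 250 bases. Capitals mark the 1 match to a minimal heat shock element, which ends 96 bases before the start in both.
Hspa1a chr17:34972157-34972406: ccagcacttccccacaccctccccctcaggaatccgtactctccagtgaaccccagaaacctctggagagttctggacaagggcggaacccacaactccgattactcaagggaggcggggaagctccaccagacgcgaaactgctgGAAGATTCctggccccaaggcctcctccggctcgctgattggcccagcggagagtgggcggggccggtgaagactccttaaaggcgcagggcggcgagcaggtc
Hspa1b chr17:34959239-34959488: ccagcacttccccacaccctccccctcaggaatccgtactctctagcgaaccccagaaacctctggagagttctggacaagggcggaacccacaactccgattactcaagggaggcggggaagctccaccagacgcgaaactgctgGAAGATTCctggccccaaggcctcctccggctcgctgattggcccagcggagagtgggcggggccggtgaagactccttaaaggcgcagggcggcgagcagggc
The motif searched was TTCNNGAA or GAANNTTC, each of which reads the same on both strands. One of these forms occurs in 16.97% of the 27025 genes with a window of 250 bases before to 50 bases after the start, so a match is common and is a description of the letters only. Windows were found for 5 of the 10 members, and the window of Hspa4 held no match.

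Hspa1b ran from 5.50 through a median of 7.53 to 15.9 TPM in the Poly(I:C) group and from 7.46 through 8.885 to 15.2 TPM in the saline group. Of the Poly(I:C) libraries, replicates 1, 3, 4, 7 and 8 lay at or below 7.53 TPM. Replicates 2, 5, 6 and 9 lay at 10.3 TPM or above, and saline libraries filled the gap between them. This split is made on the Hspa1b values themselves and was not tested. The means were 9.64 ± 3.86 (SD, n = 9) and 9.66 ± 2.53 TPM (SD, n = 8), with a log2 difference of -0.053 ± 0.18 (SE; limma adjusted p = 0.946). Hspa1a ran from 5.92 through 7.40 to 11.9 TPM in the Poly(I:C) group and from 6.74 through 8.07 to 10.7 TPM in the saline group. Its groups overlapped over most of their range, and its log2 difference was 0.021 ± 0.12 (SE; limma adjusted p = 0.966). Because reads of near-identical copies are divided by estimation, the pair was also summed, with means of 18.1 ± 5.77 (SD, n = 9) and 17.8 ± 3.69 TPM (SD, n = 8) and a log2 difference of -0.016 ± 0.15 (SE; limma adjusted p = 0.980). Hspa1b held 43.6 to 59.8% of that sum. The antisense gene Gm20481, which overlaps Hspa1a, was listed at 0 to 0.17 TPM.

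The inducible pair varied more between animals than the other members. The coefficient of variation of Hspa1b was 40.1% within the Poly(I:C) group and 26.2% within the saline group, and the highest library held 2.89 times the lowest. Within-group spread on the log2 scale put Hspa1b at the percentile 98.2 and Hspa1a at the percentile 92.3 of all tested genes, where genes of low TPM tend to be more variable. Hspa9 was the opposite case, with coefficients of 5.64% and 6.42% and a highest library 1.25 times the lowest.

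Hspa4 (ENSMUSG00000020361.13, chr11:53259814-53300457, minus strand) encodes a member of the HSP110 group, which exchanges nucleotide on HSP70. Its TPM was 57.5, 65.5 and 75.8 at the lowest, median and highest Poly(I:C) library and 60.8, 68.8 and 72.6 in the saline group. The Poly(I:C) range enclosed the saline range, with replicate 1 below it and replicate 9 above it. The log2 difference was -0.036 ± 0.047 (SE; limma adjusted p = 0.833) as deposited and 0.00075 on the scaled values.

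In the mitochondrion, Hspa9 (ENSMUSG00000024359.8) encodes mortalin, the HSP70 that pulls imported proteins into the matrix. It ran from 81.5 through a median of 86.2 to 97.1 TPM in the Poly(I:C) group and from 81.4 through 92.0 to 102 TPM in the saline group. Although 8 of 9 Poly(I:C) libraries lay below the saline median, the ranges overlapped. Saline replicate 6 was the lowest library of all, and 2 saline libraries lay above every Poly(I:C) library. The means were 87.6 ± 4.94 (SD, n = 9) and 92.4 ± 5.94 TPM (SD, n = 8), with a log2 difference of -0.076 ± 0.042 (SE; limma adjusted p = 0.604).

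Hspd1 (ENSMUSG00000025980.14, chr1:55077835-55088243, minus strand) and Hspe1 (ENSMUSG00000073676.4, chr1:55088132-55091307, plus strand) encode the mitochondrial chaperonin HSP60 and its co-chaperonin HSP10. The genes lie head to head and their annotated 5′ ends overlap, and no source used here says whether reads were counted by strand. The window around the Hspe1 start shares 285 of its 300 bases with the opposite strand of a window of Hspd1, whose start lies inside the annotated gene, and the stretch of both that holds the heat shock motif is shown, since the 2 genes share it. It is printed 5′ to 3′ on the plus strand from RefSeq on GRCm38.p6, and capitals mark an 18-base element of 3 overlapping matches to TTCNNGAA or GAANNTTC that ends 71 bases before the Hspe1 start.
Hspe1 and Hspd1 chr1:55088053-55088082: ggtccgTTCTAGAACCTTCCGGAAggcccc
The longer forms TTCNNGAANNTTC or GAANNTTCNNGAA, searched on both strands, occur in 0.662% of the 27025 genes, 179 in number, and this element holds both. The window at the annotated 5′ end of Hspd1 held no match, and the element lies downstream of that end.

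Hspd1 was measured at 77.7, 82.5 and 106 TPM in the lowest, median and highest Poly(I:C) library and at 92.9, 97.1 and 115 TPM in the saline group. Of the 9 Poly(I:C) libraries, 7 lay below every saline library and 8 below the saline median, while replicate 9 was the 1 that lay above it. The means were 87.2 ± 8.90 (SD, n = 9) and 100.3 ± 7.32 TPM (SD, n = 8), a difference of -13.0%. On the log2 scale the difference was -0.20 ± 0.056 (SE), with an unadjusted p of 0.00173 and an adjusted p of 0.486 in limma. That p was the 45th smallest of 14144, and the difference after median-of-ratios scaling was -0.17 (limma adjusted p = 0.581). Hspe1 ran from 57.3 through a median of 63.7 to 76.1 TPM in the Poly(I:C) group and from 65.3 through 68.3 to 72.5 TPM in the saline group. It too had 6 of 9 Poly(I:C) libraries below the lowest saline library, but Poly(I:C) replicate 9 was the highest of all. The means were 64.6 ± 5.52 (SD, n = 9) and 68.5 ± 2.39 TPM (SD, n = 8), with a log2 difference of -0.088 ± 0.045 (SE; limma adjusted p = 0.577).

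Hsf1 (ENSMUSG00000022556.9, chr15:76477422-76501913, plus strand), the master regulator of the heat shock response, is controlled mainly at the protein level. Its TPM was 20.8, 25.96 and 29.2 at the lowest, median and highest Poly(I:C) library and 23.2, 26.4 and 32.9 in the saline group. Saline replicate 2 was the highest of the 17, Poly(I:C) replicates 1 and 4 were the lowest, and the remaining libraries were mixed. The log2 difference was -0.054 ± 0.070 (SE; limma adjusted p = 0.831).

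**Figure D2:**
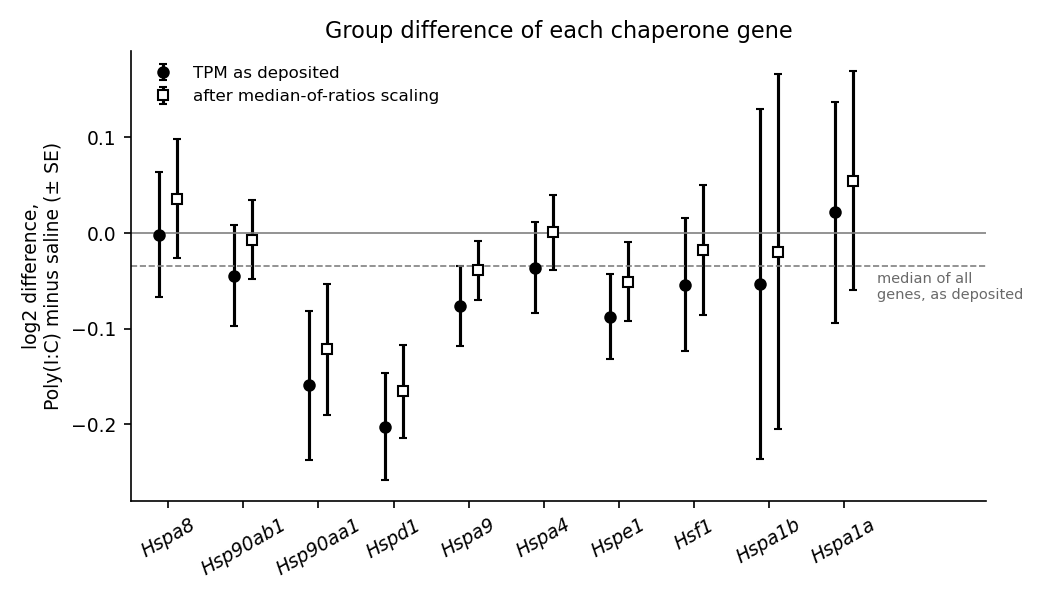
Log2 difference in mean log2(TPM + 1), Poly(I:C) minus saline, with its SE, for each chaperone gene from the deposited TPM (filled) and after median-of-ratios scaling (open). Hspd1 lies farthest below 0 at -0.20, Hspa8 and Hspa4 change side with the scaling, and the dashed line marks the median of all tested genes.

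Ratios within a library do not depend on how TPM is scaled, and 4 were compared by two-sided exact permutation of the group labels (24310 arrangements), with p-values adjusted over the 4. The ratio of Hspd1 to Hspe1 was 1.26, 1.37 and 1.48 at the lowest, median and highest Poly(I:C) library and 1.39, 1.43 and 1.62 in the saline group. Of 9 Poly(I:C) libraries, 6 lay below the whole saline range, saline replicates 7 and 2 stood highest, and Poly(I:C) replicate 7 was the lowest. The mean ratio was 1.35 ± 0.0739 (SD, n = 9) against 1.46 ± 0.0845 (SD, n = 8), a difference of -0.12 on the log2 scale (SE 0.039; exact permutation p = 0.00876, adjusted p = 0.0350). Both libraries numbered 7 also stood apart in genes of neighbouring tissue: in saline replicate 7 the summed olfactory bulb markers reached 45.9 TPM, against a median of 6.19 TPM in its group, and in Poly(I:C) replicate 7 the summed striatal markers reached 193 TPM against a median of 112. Without these 2 libraries the difference was -0.082 (exact permutation p = 0.0343, adjusted p = 0.137). Leaving out 1 library at a time gave -0.13 to -0.095 with an adjusted p from 0.00249 to 0.0776 (exact permutation). The call was lost without any 1 of Poly(I:C) replicates 2, 3, 6, 7 and 8 or saline replicates 2, 5, 7 and 8. With the replicate number as a block, which drops Poly(I:C) replicate 9, it was also lost, at -0.12 (exact sign-flip permutation, adjusted p = 0.156).

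**Figure D3:**
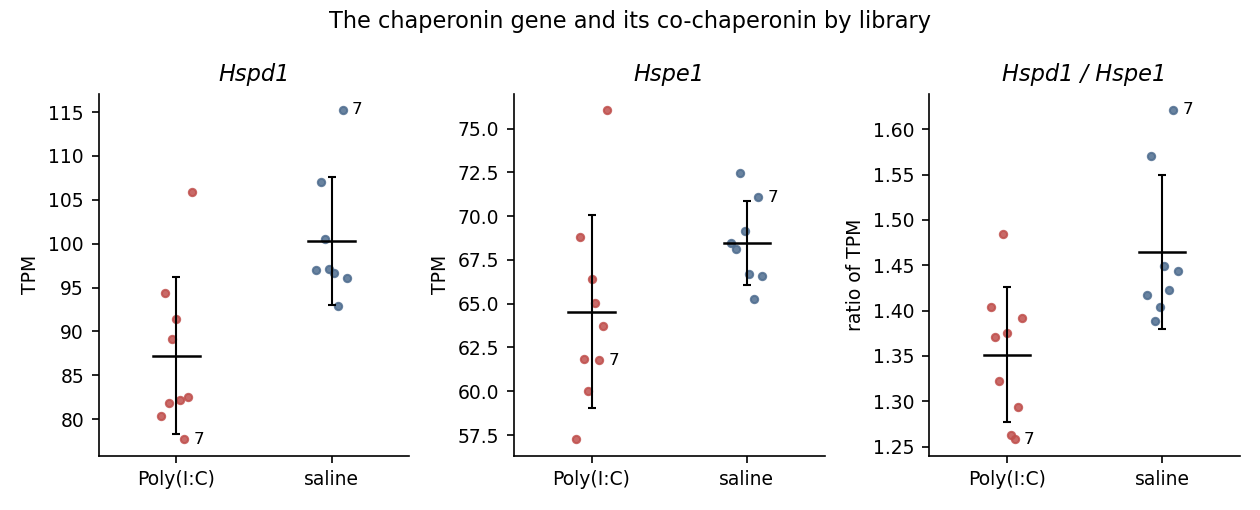
TPM of Hspd1 and of Hspe1 and the ratio of the 2 in each library, with the group mean and SD (bar and whiskers) and the libraries numbered 7 marked. In the ratio, 6 of 9 Poly(I:C) points lie below all saline points, and the points marked 7 are the lowest and the highest.

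The ratio of Hsp90aa1 to Hsp90ab1 was 0.578 ± 0.0348 (SD, n = 9) in the Poly(I:C) group and 0.627 ± 0.0504 (SD, n = 8) in the saline group. It did not pass, with a log2 difference of -0.11 (SE 0.049; exact permutation p = 0.0333, adjusted p = 0.0666), though it passed without Poly(I:C) replicate 4 (0.0329), Poly(I:C) replicate 9 (0.0485) or saline replicate 1 (0.0316) as exact adjusted p. For the inducible over the constitutive HSP70, the summed Hspa1 genes over Hspa8, the ratio had group means of 0.00818 and 0.00819, a log2 difference of -0.018 (SE 0.13; exact permutation adjusted p = 0.890). Mitochondrial over cytosolic HSP70, Hspa9 over Hspa8, stood at 0.0408 and 0.0428, a log2 difference of -0.075 (SE 0.072; exact permutation adjusted p = 0.413). A p above the threshold does not show that the ratios were equal.

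Across the 17 animals many pairs of chaperone genes varied together, more of them as deposited than after scaling. Pearson's r of log2(TPM + 1) was computed for all 45 pairs, with permutation p from 100000 resamples and adjustment over the 45. As deposited, 26 pairs were positive at an adjusted p under 0.05 and 0 were negative (27 pairs by Spearman's rho), with a median r of 0.566. After median-of-ratios scaling 12 pairs met that limit, with a median r of 0.436, so the count depends on the scaling. The share among pairs of other genes was not computed. With the group means taken off first, 26 pairs passed, and 14 did without the 2 libraries farthest from the median. The labels give no batch or sequencing date within which to repeat these values.

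Copies, partners and relatives were among the closest pairs, but not alone. Cytosolic Hsp90aa1 and mitochondrial Hspa9 had r = 0.790 and rho = 0.775 (permutation p = 0.0001, adjusted p = 0.00099), and r = 0.637 after median-of-ratios scaling. Hsp90ab1 and Hspa9 had r = 0.759 (permutation p = 0.00039, adjusted p = 0.00251), and r = 0.513 after that scaling. Hspa1a and Hspa1b had r = 0.857 and rho = 0.863 (permutation p = 4e-05, adjusted p = 0.0006), r = 0.766 without the 2 farthest libraries and 0.857 after median-of-ratios scaling, and their reads are divided between them by estimation. Hsp90aa1 and Hsp90ab1 had r = 0.841 and rho = 0.887 (permutation p = 3e-05, adjusted p = 0.0006), r = 0.845 without the 2 farthest and 0.747 after scaling. Hspd1 and Hspe1, which share their start region, had r = 0.812 and rho = 0.897 (permutation p = 0.00011, adjusted p = 0.00099), r = 0.815 without the 2 farthest and 0.693 after scaling. Constitutive Hspa8 followed inducible Hspa1a with r = 0.840 and rho = 0.821 (permutation p = 4e-05, adjusted p = 0.0006), and r = 0.824 without the 2 farthest. Hsf1 followed Hspa1b with r = 0.726 and rho = 0.733 (permutation p = 0.00076, adjusted p = 0.00427), and r = 0.656 without the 2 farthest. Hspa8 also followed Hsp90ab1, with r = 0.680 and rho = 0.718 (permutation p = 0.00319, adjusted p = 0.011), r = 0.735 without the 2 farthest and 0.624 after scaling. By contrast Hsf1 had r = 0.017 with Hsp90aa1 (permutation p = 0.948) and r = -0.055 with Hspa9.

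**Figure D4:**
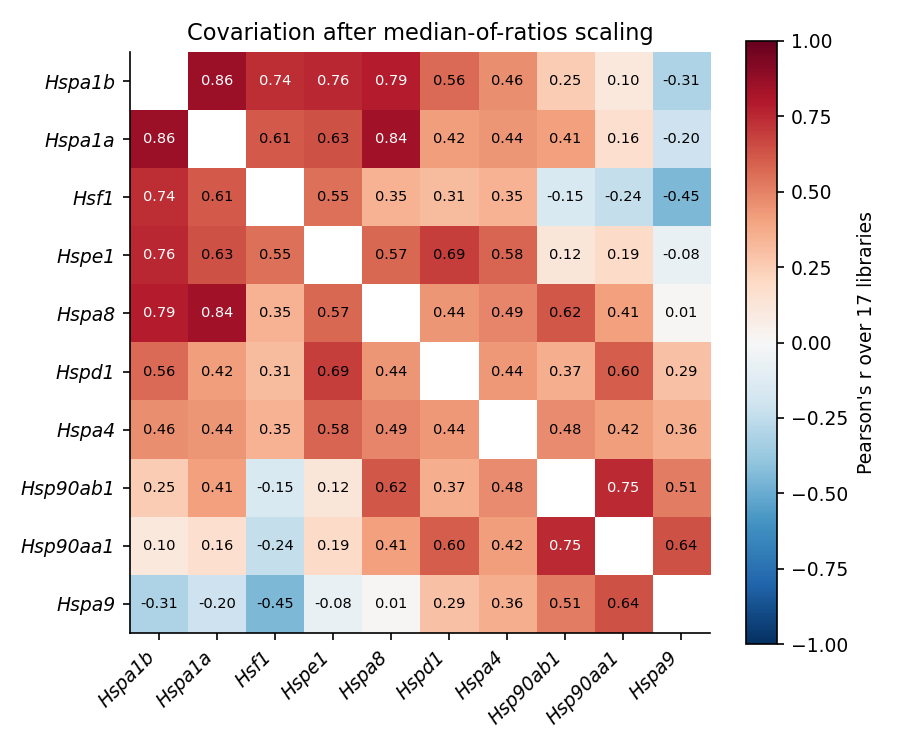
Pearson's r of log2(TPM + 1) after median-of-ratios scaling between each pair of chaperone genes over 17 libraries, from -1 (blue) to 1 (red). Hspa1b has its highest values with Hspa1a, Hspa8, Hspe1 and Hsf1, Hsp90aa1 and Hsp90ab1 with each other, and Hspa9 is negative or near 0 with Hspa1b, Hspa1a, Hsf1, Hspe1 and Hspa8.

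For 5 members the most similar of all other tested genes were found by Pearson's r after median-of-ratios scaling, as a description without a test. Genes most like Hspa1b were chaperones of the endoplasmic reticulum: Hspa5, the HSP70 of that compartment, at r = 0.958, Calr (calreticulin) at 0.957 and the disulfide isomerase Pdia6 at 0.955. For Hspa8 they were Gnaq at 0.927, Stip1, the adaptor that joins HSP70 to HSP90, at 0.927 and Rock2 at 0.918. Hsp90ab1 was most like Atrn at 0.914, with Alg10b and D430041D05Rik at 0.897 each. Hspd1 was most like the histone chaperone Nap1l1 at 0.870, Ero1lb at 0.852 and Bbs7 at 0.845. Hsf1 was most like Dmtf1 at 0.908, Abca7 at 0.882 and P4ha1 at 0.852.

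The spread of the inducible HSP70 genes also ran with some clock genes, in a set of 14 chosen after the values were seen and given as a description only. Over the 14, r with Hspa1b ran from -0.906 to 0.844 with a median of 0.051, and Per3, Per1, Tef, Cry2, Hlf and Cry1 had values of -0.331, -0.262, -0.0072, 0.108, 0.221 and 0.243. Dbp, a transcription factor gene under direct control of the circadian clock, had r = -0.906 and rho = -0.882 with Hspa1b over the 17 libraries after median-of-ratios scaling. Without the 2 libraries farthest from the median r was -0.912, and within the saline group it was -0.876. No value is given within the Poly(I:C) group, whose Hspa1b values leave the gap named above. In the Poly(I:C) libraries below that gap Dbp stood at 93.1 to 104.6 TPM, and in those above it at 63.9 to 73.8 TPM. These ranges restate the correlation and are no separate finding. The clock repressor Nr1d1 had r = -0.881 with Hspa1b, the clock activator Arntl r = 0.844, and the cold-inducible RNA-binding protein gene Cirbp r = -0.858.

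The other members differed in how closely they followed Dbp. Its r was -0.900 with Hspa1a, -0.853 with Hspa8, -0.722 with Hspe1 and -0.644 with Hsf1. With Hspd1 it was -0.480, with Hspa4 -0.424, with Hsp90ab1 -0.390, with Hsp90aa1 -0.240 and with Hspa9 0.239. A set of 11 endoplasmic reticulum chaperones was chosen after the values were seen and includes Hspa5, Calr and Pdia6, the genes most like Hspa1b. Its median r of 0.905 with Hspa1b is therefore a description only. The median r was 0.878 with Hspa1a, 0.776 with Hspa8, 0.691 with Hsf1, 0.655 with Hspe1 and 0.487 with Hspd1. It was 0.451 with Hspa4, 0.251 with Hsp90ab1, 0.052 with Hsp90aa1 and -0.261 with Hspa9. The groups had the same mean of Dbp, 84.9 ± 16.1 (SD, n = 9) and 84.9 ± 13.8 TPM (SD, n = 8; limma adjusted p = 0.986). Hspa5 stood at 93.6 ± 25.7 and 91.5 ± 18.8 TPM (limma adjusted p = 0.985). The hour at which the tissue was taken is not given in the sources used here, and its part in the spread of these genes was not tested. With Dbp as a covariate in limma, 0 of the 10 members passed, and Hspd1 had a log2 difference of -0.20 (adjusted p = 0.385).

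**Figure D5:**
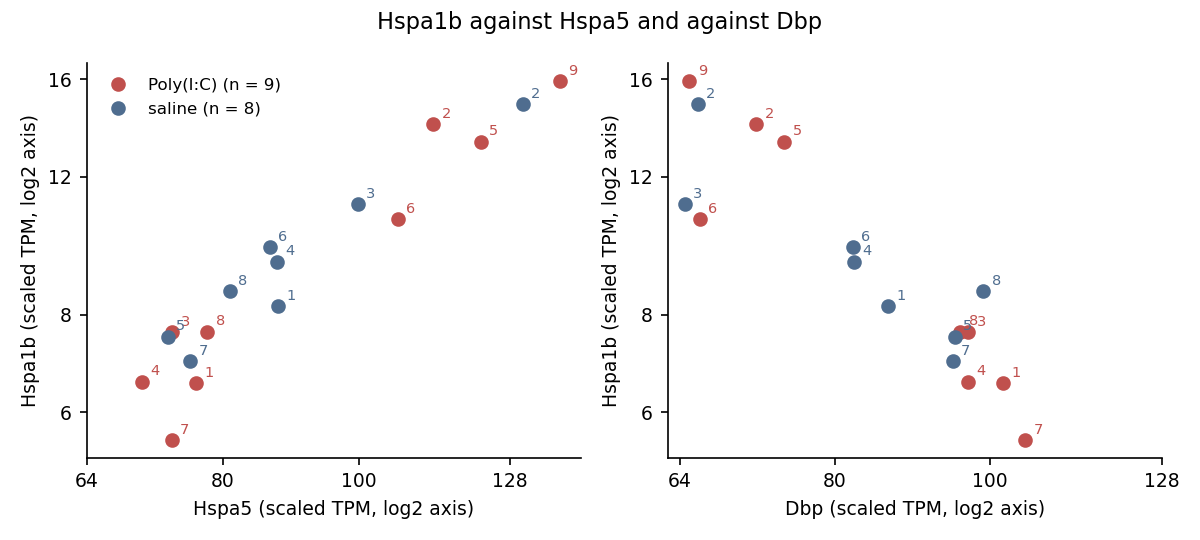
Hspa1b (TPM after median-of-ratios scaling, log2 axis) against Hspa5 on the left and Dbp on the right, with 1 numbered point per library. Hspa1b is higher in libraries with more Hspa5 (r = 0.958) and lower in those with more Dbp (r = -0.906), and points of both groups are mixed along the trend.

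Chaperones and co-chaperones that work with these 10 genes were described by list. In limma 0 of the 58 tested of 63 listed genes passed, where 0% of all tested genes did. Of the 58, 4 were under an unadjusted p of 0.05, all lower in Poly(I:C) libraries. Among all tested genes 8.75% met that limit, 7.85% with lower values in the Poly(I:C) group. In that group 41 of the 58 were lower and 17 higher, where 71% of all tested genes were lower. The median log2 difference of the 58 was -0.032, beside -0.035 over all tested genes. After median-of-ratios scaling 29 were lower and 29 higher, where 50.9% of all tested genes were lower. Hspa1l, Hspb2, Hspb7, Hsf5 and Hsf2bp were below the TPM limit and were not tested.

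Subunits of the cytosolic chaperonin TRiC, which folds actin and tubulin, were the list in which all members lay on 1 side. All 8 were lower under both scalings, where 71% of all tested genes were lower as deposited and 50.9% scaled. Their medians were -0.068 as deposited and -0.031 scaled, beside -0.035 and -0.0014 over all tested genes. Of the 8, 0 were under an unadjusted p of 0.05, and the list as a whole was not tested. Cct8 averaged 86.2 TPM in Poly(I:C) and 94.1 TPM in saline libraries (limma adjusted p = 0.624), Cct2 at 67.4 and 70.6 TPM and Cct6a, the most abundant, at 129 and 138 TPM. Of 12 mitochondrial partners and proteases 7 were lower and 5 higher under both scalings. Trap1, the mitochondrial HSP90, had means of 29.5 ± 1.15 (SD, n = 9) and 31.5 ± 1.22 TPM (SD, n = 8), and 9 of 9 Poly(I:C) libraries lay below its saline median. Its log2 difference was -0.092 ± 0.033 (SE), with an unadjusted p of 0.0119 and an adjusted p of 0.486 in limma. The nucleotide exchange factor gene Grpel2 was at 5.58 and 6.02 TPM, and the matrix protease gene Clpp at 37.9 and 37.5 TPM.

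Among 20 co-chaperones of HSP70 and HSP90, 15 were lower as deposited and 8 on the scaled values. The HSP70 cofactor St13 had means of 83.1 ± 8.31 (SD, n = 9) and 91.9 ± 8.48 TPM (SD, n = 8), a log2 difference of -0.14 ± 0.060 (SE; limma adjusted p = 0.545). Bag1 was at 82.2 and 86.2 TPM, and Bag6 at 177 TPM in both groups. Of 7 tested relatives of the cytosolic HSP70 and HSP110 genes, 6 were lower as deposited and 2 after scaling, with Hspa2 at 21.2 and 22.9 TPM, Hspa12b at 2.15 and 2.37 TPM and the HSP110 gene Hsph1 at 134 and 135 TPM. Of 6 tested small heat shock proteins 4 were higher under both scalings, with 0 of 6 under an unadjusted p of 0.05. Their most abundant member Cryab, which oligodendrocytes express strongly, stood at 104 and 93.0 TPM (limma adjusted p = 0.649). In the same libraries the summed myelin markers ran from 1502 to 3114 TPM in the Poly(I:C) group, replicate 7 being the highest, and from 1623 to 2144 TPM in the saline group, and their part in the Cryab values was not tested. Hspb11 had a log2 difference of -0.14 (limma adjusted p = 0.576).

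Targets and regulators of HSF1 gave no common direction as deposited. Of 13 genes known to be induced by HSF1 on heat shock, 6 were lower and 7 higher in the deposited values, and 3 lower and 10 higher once scaled by median of ratios, with medians of 0.014 and 0.050. The HSP40 gene Dnaja1 stood at 148 and 162 TPM (limma adjusted p = 0.597). Of the regulators, Hsf2 stood at 8.01 and 8.35 TPM, Hsf4 at 20.8 and 19.3 TPM and the HSF1-binding protein gene Hsbp1 at 267 and 268 TPM.

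The tissue label was checked against marker genes. Excitatory neuron markers of the cortex, among them Slc17a7 and Tbr1, summed to 2700.4 to 3016 TPM in the Poly(I:C) group and 2728 to 2973 TPM in the saline group, and the 4 choroid plexus markers summed to 0.74 to 6.16 TPM and 1.07 to 2.46 TPM, Poly(I:C) replicate 7 being the highest and Folr1, Kl and Clic6 under 1 TPM in all libraries. No tested gene of 13 marker lists passed between the groups. Immediate early genes, which neuronal activity and handling induce, were lower in 9 of 10 members, with a mean log2 difference of -0.21. Of all tested genes 71% were lower as deposited. All 5 olfactory bulb markers had a lower group mean, with a mean log2 difference of -0.25. Summed, they had medians of 5.85 TPM in the Poly(I:C) group and 6.19 TPM in the saline group. Saline replicate 7 alone reached 45.9 TPM, so that difference leans on it. Blood, striatal and myelin markers had 0 lower members each, with mean log2 differences of 0.17, 0.17 and 0.083. Poly(I:C) replicate 7 was the highest in the summed striatal and myelin markers, at 193 and 3114 TPM. The medians of its group were 112 and 1886 TPM, so the striatal and myelin differences lean on that library. The part of these lists in the values of the chaperone genes was not tested.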

How the data were processed

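Abundance was deposited by the authors as TPM for each gene and library, rounded to 2 decimals, from strand-specific single-end reads of 100 bp. The submitters' processing notes list RSEM 1.2.31, STAR 2.5.1b, Trim Galore 0.4.0 and the build mm10. For the annotation release, strand setting and filters, nothing was given in the sources used here. RSEM divides reads that match several genes by estimation. TPM keeps no depth, so depth per library is unknown and no counting interval was computed.

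The 10 members and all gene lists were chosen with earlier results of these data known. A gene was tested where 8 or more libraries had a TPM of 1 or more, by limma 3.58.1 (R 4.3.3; moderated with a trend, two-sided) on log2(TPM + 1), with Benjamini-Hochberg adjustment over all 14144. Differences on this scale understate changes of genes with low TPM. Ratios and correlations used permutation tests in Python 3.11.15 with scipy 1.17.1. The limma procedure was tested on simulated data. Named genes are all 10 members and, of each partner list, the 2 with the smallest p and the most abundant 1. Likeness was searched for 5 members, 3 genes each. Clock and endoplasmic reticulum genes, including Dbp, were added after their values were seen. Coordinates are from GENCODE M21 on GRCm38, promoters from RefSeq (GRCm38.p6), and copies came from a BLAST 2.17.0 search (97% identity or more over at least 100 bases). No 2 libraries were identical. Replicate numbers were checked for pairing and do not pair the animals. Alternatives were other scalings, pseudocounts, filters, a rank test, the replicate block, leaving out each library and, added after seeing the data, Dbp as a covariate. From the marker lists, 1 gene is not reported here.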

Additional observations from a re-analysis of the deposited data

Results flagged for a closer look

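Saline replicate 2 stood apart from its group in Hsf1, at 32.9 TPM where the other 7 saline libraries ran from 23.2 to 27.7 TPM. The same library stood apart in the ratio of the summed Hspa1 genes to Hspa8, at 0.0109 where the others ran from 0.00681 to 0.00875. In both cases the gap to the nearest library was larger, relative to the range of the group, than Dixon's critical value allows. Chance gives such a value in about 1 in 20 groups, and 28 groups of values were examined, of which these 2 stood out.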

How the results depend on the processing

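No member of the 10 chaperone genes and no gene of the partner lists passed under any alternative run, and Hspd1 reached an adjusted p of 0.318 at the lowest with all alternatives but leaving out single libraries, and 0.248 to 0.807 with those. Among all genes, 2 passed after median-of-ratios scaling, 2 with the replicate block and 0 to 1 with single libraries left out, 1 without saline replicate 4; none is a member. The cause was not tested for these or for the changes of direction that follow. With median-of-ratios scaling the log2 difference was 0.036 for Hspa8, 0.00075 for Hspa4, 0.032 for Hsph1 and 0.030 for Hsbp1, and with quantile normalization 0.016 for Hsph1 and 0.0056 for Hsbp1. Without both libraries numbered 7 it was 0.038 for Hspa8, 0.012 for Hsph1, -0.0097 for Bag6 and 0.019 for Hsbp1. The replicate block, which drops Poly(I:C) replicate 9 because the saline group has no such number, turned Hspa1a to -0.040. For Hspa8 the block and leaving out Poly(I:C) replicate 9 alone gave the same difference, -0.033. The rank test gave a difference in mean rank of -0.24 for Hspa1a and -1.18 for Clpp. Single libraries left out gave -0.033 to 0.030 for Hspa8, -0.040 to 0.073 for Hspa1a, -0.15 to 0.037 for Hspa1b, -0.046 to 0.030 for Hsph1, -0.0081 to 0.027 for Bag6, -0.014 to 0.026 for Clpp and -0.025 to 0.0090 for Hsbp1. Of members that kept their sign, Hsf1 ran from -0.080 to -0.011, Hspa4 from -0.061 to -0.011 and Hsp90ab1 from -0.077 to -0.026, and Hsp90aa1 was -0.10 without both libraries numbered 7. They gave -0.13 to -0.095 for the ratio of Hspd1 to Hspe1, which was -0.12 with the replicate block and -0.082 without both libraries numbered 7, neither past the threshold. They gave -0.13 to -0.090 for Hsp90aa1 over Hsp90ab1 and -0.072 to 0.043 for the Hspa1 sum over Hspa8. Positive pairs at an adjusted p under 0.05 numbered 26 at first, 12 with median-of-ratios scaling and 14 without the 2 farthest libraries. Same-numbered libraries had correlations of their deviations from -0.22 to 0.08, and 1 of 8 was most like its own number, so the replicate block is given here for completeness. The depth behind each TPM is unknown.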
